A study of Homo sapiens and Mus musculus with 9 samples.

Results

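The 1236 peaks described here are LS174T peaks in protein-coding genes at which the HepG2 list has no peak. LS174T is a human colorectal adenocarcinoma line and HepG2 a human hepatocellular carcinoma line. Members were chosen from the LS174T list by position, with the HepG2 list used to set peaks aside. The summit had to lie in a protein-coding gene span and in no lncRNA, pseudogene or small RNA gene span, and the peak could not overlap a HepG2 peak by 1 bp or more on its strand. Of 2103 peaks in the LS174T list, 1657 had such a summit, 421 of these overlapped a HepG2 peak and 1236 did not. They lie in 958 genes. All human lists read here hold 3706 peaks. Since membership rests on the contrast between the cell lines, the absence of a HepG2 peak is a description and not a result.

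The study mapped RNA near the pregnane X receptor (PXR, encoded by NR1I2) by enhanced crosslinking and immunoprecipitation (eCLIP), in which ultraviolet light joins RNA to protein before the protein is pulled down. The groups used here were wild-type LS174T cells (an input without antibody and a PXR immunoprecipitate), PXR knockout LS174T cells (a PXR immunoprecipitate) and HepG2 cells, whose 2 immunoprecipitates used an antibody to the HA tag. How PXR was removed, whether the knockout is 1 clone and how the tagged protein was expressed in HepG2 are not stated in the labels. Cells were irradiated at 254 nm with 400 mJ/cm2.

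The record ties the large LS174T list to the wild-type input and a list of 46 peaks to the wild-type PXR immunoprecipitate. The names of these files and of their peaks instead read WT and KO, both as immunoprecipitates. Below, WT-named means the large list and KO-named the small one, and neither genotype nor antibody is taken as settled. Each list is 1 set of peaks without values per library. No spread between replicates could be had, the HepG2 list stands for 2 libraries, and tests below run over peaks, which are not replicates of a condition. No list held a peak within 5000 bp of NR1I2 (chromosome 3, 119782101 to 119818487), so that gene does not check the labels. Windows of 10 kb around the peaks held 274326 reads in the WT-named list, 125967 in HepG2 and 8139 in the KO-named list. The largest single window held 87958, 27962 and 4202 of these, and neighbouring windows can overlap, so the sums are a rough measure of depth.

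PXR is a ligand-activated transcription factor of liver and intestine that binds DNA with the retinoid X receptor and induces genes of drug and bile acid handling. An eCLIP peak marks a stretch of RNA with more reads than its surroundings. Reads in abundant messenger RNAs reach a peak caller's threshold more easily, and the lists hold no RNA levels. A peak is therefore given below as a place with reads, not as binding.

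Sequence could be read for members whose summit falls in a RefSeq window around an annotated transcript start, since 16 members had their own gene's window there with 15 bases on each side. The 8 with most reads are shown to let the reader see the letters at the summit. Each window ran from 250 bases before the annotated start to 50 after it, so mostly sequence before the start could be read. Of the sites shown, only the UBB summit lay after the start of its window's transcript, by 13 bp. The others lay before it, with a summit minus start from -7 bp in STK25 to -111 bp in M6PR. Each site is 30 bases of GRCh38.p14, on the strand of the gene, 5′ to 3′, with the summit base in capitals.
UBB, chr17:16381288-16381317, plus strand: gcgtgggggaggggaGggcgaggtgacgcg
TRIB3, chr20:381221-381250, plus strand: gggggcggccggggaAgggggcgccggaag
ARL6IP1, chr16:18801380-18801409, minus strand: cccgggagccgagcgAggcctccagacgtc
ODC1, chr2:10448077-10448106, minus strand: ggccgcggaggaaggGagggagcgagggcg
JPT1, chr17:75154284-75154313, minus strand: cgcggggctgaggggCtgggagggccgctg
M6PR, chr12:8949507-8949536, minus strand: gtattcactggggatTctgagctttggcta
SNRPE, chr1:203861763-203861792, plus strand: gtgcgaaggcgcaggCtgagggcaggcctg
STK25, chr2:241508338-241508367, minus strand: tggcggggacaccggGgcgggggcaccggg

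Among the sites shown, the count of G ran from 9 of 30 bases in M6PR and 11 in ARL6IP1 to 20 in UBB and TRIB3. M6PR, the gene of the cation-dependent mannose 6-phosphate receptor, stands apart among those shown with 46.7% G and C. Over the 16 sites the median share of G and C was 78.3% (range 43.3 to 90%). At least 10 G among 30 bases were held by 13 of them. That count was not taken over all windows or over the overlapping sites, so it has no share to be read against. The same positions averaged 58.3% over all 35116 windows of the table. The 6 such sites among peaks that overlap a HepG2 peak had a median of 76.7%, so the richness in G and C is not particular to the LS174T-only peaks. The summits carry few reads, 19 for the ubiquitin gene UBB, 13 for TRIB3 and 10 each for ARL6IP1 and the ornithine decarboxylase gene ODC1.

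The reads at a summit were recovered from the deposited fold enrichment and −log10 p. Members had a median of 10 reads (quartiles 7 and 17, range 3 to 125), and the coding-gene peaks that overlap a HepG2 peak a median of 13 (range 3 to 4233). Of the members, 684 (55.3%, 95% exact binomial interval 52.5 to 58.1%) had at least 10 reads, 248 at least 20 and 27 at least 50. The share with at least 10 reads was 58.8% over all coding-gene peaks of the list and 69.1% among those that overlap HepG2. Most members are thus shallow, and a count of 10 has wide counting error, as for ANXA2's smaller peak with 10 reads (95% Poisson interval 4.80 to 18.4). The deposited fold enrichment, the authors' own ratio over local background, had a median of 7.02 and reached 27.3. Intervals cover counting error only, since reads may include PCR copies.

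The share of coding-gene peaks without a HepG2 partner was lower among deep peaks. It was 81.7% at 3 to 6 reads (228 of 279, interval 76.7 to 86.1%), 77.1% at 10 to 14 reads (319 of 414), 69.9% at 30 to 49 reads (79 of 113) and 11.5% at 100 reads or more (3 of 26, interval 2.45 to 30.2%). Depth thus moves with membership, and its part in the choice of members was not tested. At the edge of the rule, the members nearest to a HepG2 peak on their strand were in COP1 (5 bp away, 8 reads against 7 in the HepG2 peak), PTPA (10 bp), USP9X (28 bp), SLK (36 bp) and PTPRF (46 bp). Just outside lay PPP4R3A (9 bp of overlap, 8 reads against 11), ANP32E (11 bp), PRRC2C (13 bp), LRP10 (14 bp) and DSTN (33 bp). In all, 41 members lay within 1000 bp of a HepG2 peak on their strand, and 206 lay in a gene with a HepG2 peak elsewhere. Of the 958 genes, 815 had no HepG2 peak at all.

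**Figure D1:**
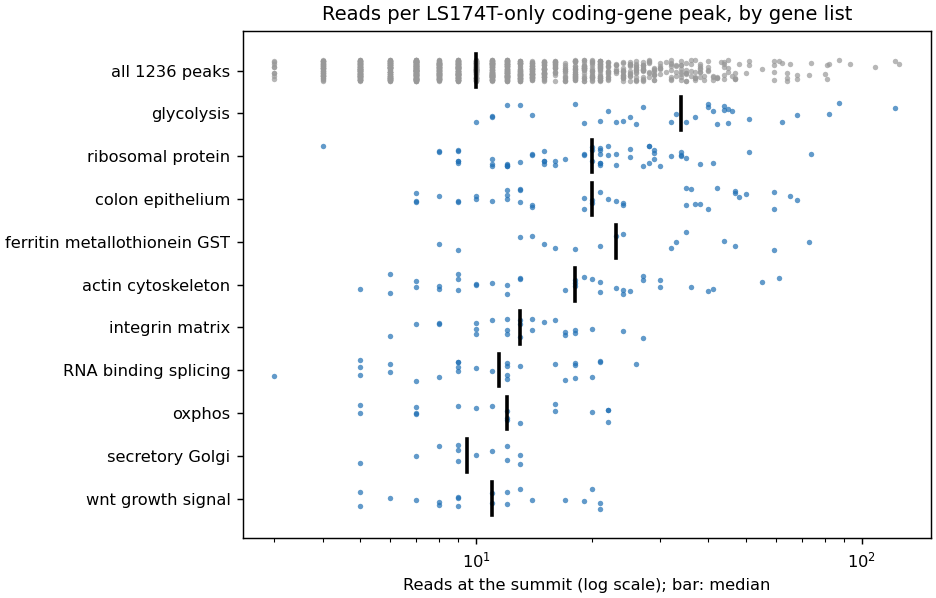
Reads at the summit of each LS174T-only coding-gene peak (log axis), for all 1236 peaks and by gene list; each point is 1 peak, spread vertically for legibility, and the bar is the median. Glycolysis peaks have a median of 34 reads against 10 over all members, and the secretory and Golgi list sits at 9.5.

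A count of genes with a member is read below against 4.78%, the share of all 20056 protein-coding genes of the RefSeq table that hold one (958 genes). No test of a list was run, and the lists were written with earlier results of these data known. In all, 259 of the 958 genes were on a list.

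Among the lists, glycolysis genes had the highest median of reads per member. Of 24 genes 13 (54.2%) held 34 members with a median of 34 reads, against 10 over all members. GAPDH, the glyceraldehyde-3-phosphate dehydrogenase gene on chromosome 12, had 87 reads at 6536944 to 6537350 and 122 reads at 6538172 to 6538494 (95% Poisson interval 101.3 to 145.7). The aldolase gene ALDOA had members of 68, 51 and 82 reads. The enolase gene ENO1 held 5 members of 37 to 62 reads, the pyruvate kinase gene PKM 5 of 32 to 46, and SLC2A1, which encodes the glucose transporter GLUT1, 5 of 27 to 45. Triose phosphate isomerase (TPI1, 24 and 26 reads), glucose-6-phosphate isomerase (GPI, 25 reads) and lactate dehydrogenase B (LDHB, 4 members of 11 to 14 reads) had no HepG2 peak anywhere in the gene. In contrast GAPDH, ALDOA, ENO1, PKM and SLC2A1 each had 1 to 3 HepG2 peaks elsewhere in the gene. Of the 13 genes, 6 had no HepG2 peak anywhere, against 815 of all 958 genes with a member. In the other 7 at least 1 HepG2 peak lies within the gene span.

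Ribosomal protein genes had a member in 44 of 82 (53.7%), 59 members in all with a median of 20 reads. RPL3, part of the large subunit near the peptidyl transferase centre, had 74 reads at chromosome 22, 39317357 to 39317599, with further members of 32 and 29. RPS6, the small-subunit protein phosphorylated by S6 kinase, held 4 members of 51, 35, 27 and 23 reads. RPL8 had 41 reads, and RPL36 had 38 and 22. Of the 44 genes, 32 had no HepG2 peak (815 of 958 over all genes with a member), RPL3, RPS6 and RPL36 among them, and RPL8 had 2. Many ribosomal protein genes have near-identical processed copies, so the assignment of their reads is uncertain.

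Translation factors had a member in 10 of 39 genes (25.6%) and a median of 14.5 reads. EEF2, which moves the ribosome along the messenger RNA, was the deepest nuclear gene after GAPDH, with members of 108, 64, 80 and 81 reads on chromosome 19 between 3977766 and 3984295. It also held 2 peaks that overlap HepG2. The poly(A)-binding protein gene PABPC1 had 29 reads, EIF5A 28 and the start-codon factor EIF1 22. Related to these is TPT1, whose messenger RNA begins with a pyrimidine tract like those of ribosomal proteins, with 4 members of 42, 29, 26 and 26 reads and no HepG2 peak.

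Colon epithelium genes had a member in 18 of 50 (36.0%), 41 members with a median of 20 reads, and 17 of the 18 genes had no HepG2 peak, against 815 of all 958 genes with a member. PIGR, the receptor that carries polymeric immunoglobulins across mucosal epithelium, held 7 members on chromosome 1 between 206928717 and 206946447. From the start of the gene to its end they had 24, 38, 35, 59, 48, 65 and 47 reads. The trefoil factor gene TFF3, a goblet cell product, had 68, 47 and 59 reads along chromosome 21 from 42315435 down to 42311971. The gut galectin gene LGALS4 had 22, 37, 36 and 50 reads from start to end, and the tight-junction gene CLDN7 42 and 35. The mucin gene MUC2 held 24 and 20, PHGR1 40, and the carcinoembryonic antigen gene CEACAM5 4 members of 12 to 23. The exception with a HepG2 peak was EPCAM, with members of 9 and 7 reads beside a peak that overlaps HepG2. Some markers of the labelled colon line were thus among the hosts, while the rest of the 50 genes held no member, CDH17, CDX2, TFF1, VIL1 and KRT20 among them.

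Markers of other cell types gave no member: 0 of 45 hepatocyte genes, 0 of 12 fibroblast, 0 of 12 leukocyte and 0 of 9 endothelial genes. The hepatocyte list had 0 genes with a peak in the HepG2 list either, so these lists do not tell the lines apart, and a gene without a peak has no RNA level here.

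**Figure D2:**
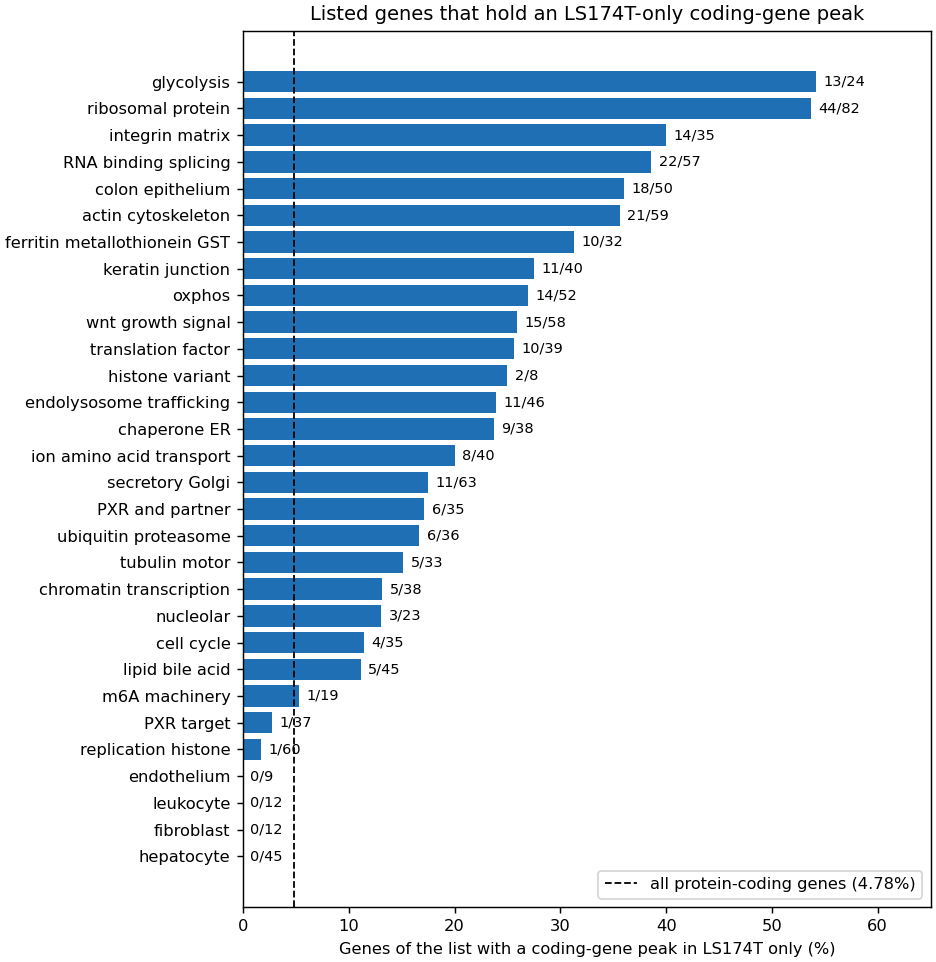
Share of the genes of each list that hold an LS174T-only coding-gene peak (bars, percent), with the number of genes with one over the number measured; the dashed line is the share among all protein-coding genes, 4.78%. Glycolysis (13/24) and ribosomal protein genes (44/82) lead, and the 4 lists of other cell types are at 0.

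Cytoskeleton and adhesion genes were further frequent hosts. Actin cytoskeleton genes had a member in 21 of 59 (35.6%, median 18 reads). ACTB held 61 and 55 reads, profilin 1 (PFN1) 41 and 25, annexin A2 (ANXA2) 40 and 10, and the non-muscle myosin gene MYH9 4 members of 18 to 36. ACTB also had 3 HepG2 peaks in the gene and PFN1 1. Of the 21 genes, 15 had no HepG2 peak, against 815 of all 958 genes with a member. The spectrin gene SPTBN1 had 7 members of 9 to 30 reads from 102 to 203 kb after its start and no HepG2 peak. Integrin and matrix genes had 14 of 35 (40%, median 13), with ITGA6 at 27 reads, FAT1 at up to 24, ITGB4 at 20 and 17 and CD63 at 18. FAT1, a giant cadherin, carried 7 members and no HepG2 peak. Keratin and junction genes had 11 of 40 (27.5%, median 10), among them CLDN7 again, JUP (18 reads), and CTNNB1, PERP and PKP3 (14 each). No keratin of that list held a member. The coding-gene peaks in KRT8, KRT18 and KRT19 overlap HepG2 peaks, and the rule sets such peaks aside. Of the tubulin and motor genes 5 of 33 (15.2%) held one, led by TUBB4B (26 and 21), KIF1C (20), MAP4 (17) and DYNC1H1 (9).

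Metal and redox genes had a member in 10 of 32 (31.3%, median 23 reads). The ferritin light chain gene FTL had 73, 32 and 59 reads on chromosome 19, from 48965320 to 48967001, and the glutathione transferase gene GSTP1 had 47. The metallothionein genes, which bind zinc and copper, lie side by side on chromosome 16. MT1E had 44 and 23 reads, MT1G 35 and 18, and MT1X 24, 15 and 21. None of these 3 had a HepG2 peak, as was so for 815 of all 958 genes with a member. The metallothionein genes are near-identical copies, so their reads may have been divided among them. FTH1, the ferritin heavy chain gene, had 33 reads and 1 HepG2 peak elsewhere.

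RNA-binding and splicing genes had 22 of 57 (38.6%) with a median of 11.5 reads, close to that of all members. HNRNPA2B1 had 26 reads, HNRNPK 21 and 9, YBX3 21 and 13, and HNRNPA0 20. Oxidative phosphorylation genes had 14 of 52 (26.9%, median 12), with ATP5F1B and COX4I1 at up to 22, ATP5MC3 at 20 and ATP5F1D at 16. Chaperones had 9 of 38 (23.7%, median 13.5), with HSPA8 at 38 and 28, HSP90AB1 at 34 and 27, CCT3 at 15 and CANX at 14. Secretory and Golgi genes had 11 of 63 (17.5%, median 9.5), among them SSR4 (13), B3GNT3 and KDELR1 (12 each) and RPN1 (11). Endolysosomal genes had 11 of 46 (23.9%, median 9), with CLTA at 26, PSAP at 22, CTSB at 14 and RAB25 at 12. Transport genes had 8 of 40 (20.0%), led by the sodium pump subunit ATP1B1 (45 and 44), SLC12A2 (30) and ATP6V0C (18). For KCNQ1, a potassium channel, the value was 14.

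Wnt and growth signalling genes had a member in 15 of 58 (25.9%, median 11 reads). CCND1 held 21 and 20, the ephrin receptors EPHB3 and EPHA2 up to 21 and 17, MYC 19 and β-catenin (CTNNB1) 14. CCND1, MYC and CTNNB1 each also held a peak that overlaps HepG2. Of the 15 genes, 11 had no HepG2 peak, against 815 of all 958 genes with a member. Cell cycle genes had 4 of 35 (11.4%), CDKN1A (22 in both members), CCND1, MCM7 (11) and CDK6 (8). Of these 4 genes only CDK6 had no HepG2 peak. Ubiquitin and proteasome genes had 6 of 36 (16.7%), with the autophagy receptor SQSTM1 at 38, UBB at 19, UBE2D3 at 11 and VCP at 8. Chromatin genes had 5 of 38 (13.2%), with CHD3 at 27, ARID1B at 7 and CREBBP at 6 among them. Nucleolar genes had 3 of 23 (NCL 14, NOLC1 8, BOP1 7), and histone variant genes 2 of 8 (H2AZ1 and MACROH2A1, 9 each).

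Besides the 4 lists of other cell types, those of the m6A machinery, PXR targets and replication histones were near or below the share of all genes. YTHDF1 with 4 reads was the member of the m6A list (1 of 19, 5.26%). AKR1B1, an aldo-keto reductase, with 5 reads was that of the PXR targets (1 of 37, 2.70%), and CYP3A4 and ABCB1 held none. Of the replication histone list 1 of 60 genes (1.67%) held a member. In that list 20 further genes held a peak that overlaps HepG2 and no member, and the rule sets such peaks aside. PXR and its partners had 6 of 35 (17.1%), among them the chaperone HSP90AB1 (34 reads), HNF4A (7), CREBBP and NCOR1 (6 each) and NRIP1 (5). Lipid and bile acid genes had 5 of 45 (11.1%), among them the desaturase gene SCD at 26 and FDFT1 and SREBF2 at up to 15.

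Genes with 4 or more members numbered 24 and genes with 2 or more 185, which held 463 members. Besides those named above they included APP (6 members of 7 to 9 reads), ABHD2 (5 of 9 to 37), the hyaluronan-binding gene CEMIP (4 of 21 to 28), the stress-induced mTORC1 inhibitor gene DDIT4 (4 of 21 to 32), the dynamin gene DNM2 (4 of 11 to 15), NDRG1 (4 of 12 to 34), SQSTM1 (4 of 21 to 38), TMBIM6 (4 of 13 to 16), the tensin gene TNS4 (4 of 21 to 39) and VEGFA (4 of 26 to 59). Among these 10 genes, APP had 1 HepG2 peak and the rest none, against 143 of all 958 genes with a member that had one. In FAT1 the members spread over the span of 138903 bp, from 0.23 kb after its start to 0.67 kb before its end. In ENO1 all 5 members lay past the middle of the span, between 6.1 and 2.2 kb before its end. The rule set aside 2 further ENO1 peaks that overlap HepG2, so this is not the place of all its peaks. In TPT1, with no peak set aside for HepG2 overlap, the 4 members lay from 0.15 to 3.96 kb after the start of a gene of 7713 bp. Peaks set aside for a lncRNA, pseudogene or small RNA gene span were not counted by gene. Members of 1 gene share their RNA and are not independent.

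**Figure D3:**
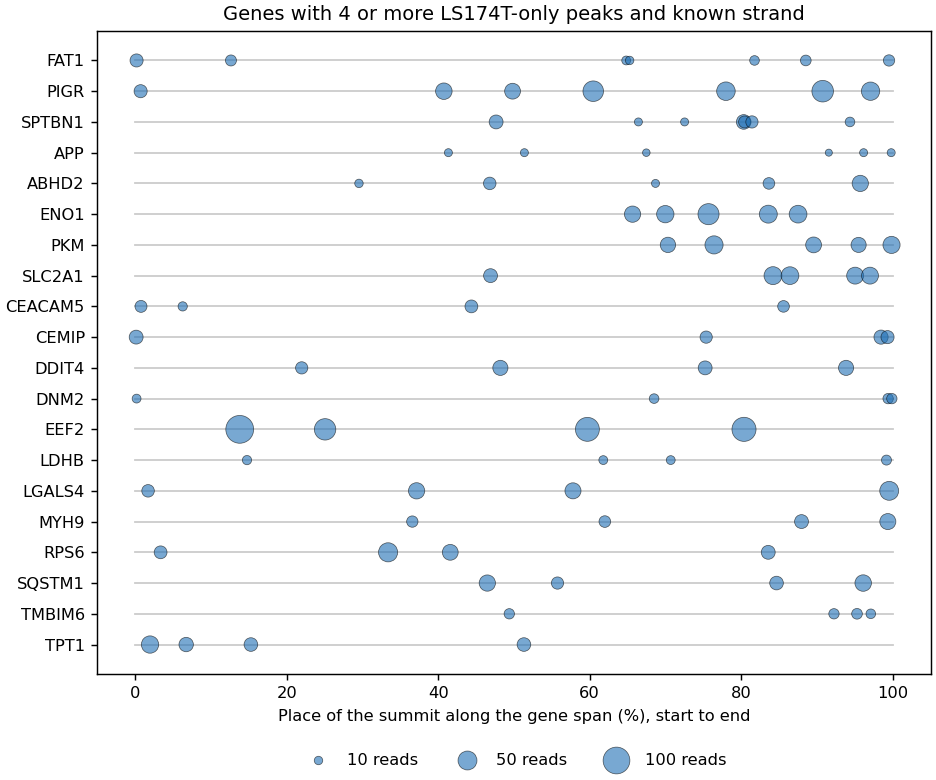
Place of each LS174T-only peak along its gene, from start (0%) to end (100%), for the genes with 4 or more such peaks whose strand is known; circle area is proportional to reads at the summit. FAT1 and PIGR carry 7 peaks from end to end, and EEF2 holds the deepest peak shown, with 108 reads.

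Peaks lay on the strand of their gene almost without exception. For 970 members every coding gene at the summit had a known strand and all shared it, while the other 266 lay where a strand is not known or genes of both strands overlap. Of the 970, 942 (97.1%, 95% exact binomial interval 95.9 to 98.1%) ran with the gene and 28 against it. Over all coding-gene peaks of the list with known strand the share was 95.9%. For peaks that overlap a HepG2 peak it was 310 of 335 (92.5%, interval 89.2 to 95.1%), lower than in the members by 4.58 percentage points (Fisher's exact test, two-sided, adjusted p = 0.000593 over 3 tests). The difference was -0.311 points without the peaks that hold at least 90% of the reads of their window (874 of 880 against 269 of 270, exact adjusted p = 1), an alternative chosen after the values were seen. At 10 to 30 reads it was 1.94 points (exact adjusted p = 0.306).

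The 28 members opposite to their gene were narrow and isolated. Their widest peak was 202 bp, and 22 were exactly 200 bp wide, the smallest width in the list. Of all 1236 members 446 had that width, and of the 942 on the strand of the gene 332. Among the 28, 22 (78.6%, interval 59.0 to 91.7%) held at least 90% of the reads of their window on that strand. Over all coding-gene peaks of the list that share was 11.6%, and among the 942 members on the strand of the gene 68 did (7.22%, interval 5.65 to 9.06%). Peaks opposite to their gene that overlap HepG2 had the same trait, with 24 of 25 (96%, interval 79.6 to 99.9%) above that share and a widest peak of 210 bp, so it is not particular to the LS174T-only peaks. The deepest of the 28 members opposite to their gene were in KLHL32 on chromosome 6 (34 reads of 34 in the window), GRIN3B (26 of 79), PTPRO (25 of 25), RUNX1 (21 of 22) and SRD5A1 (18 of 19). Stacks on the gene's strand included RALGAPA1 (37 of 37) and PPP1CC (28 of 30), and the lysosomal protease gene LGMN, whose strand was not assigned here, had 64 of 69. TBRG4, with as many reads at its summit, had 149 in its window.

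**Figure D4:**
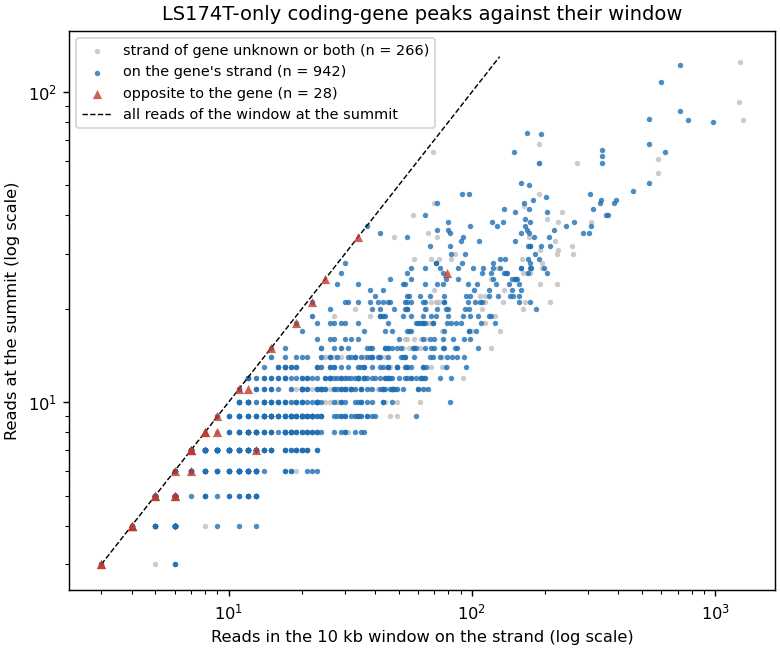
Reads at the summit against reads in the 10 kb window on the same strand for the LS174T-only coding-gene peaks (both axes logarithmic); triangles are the 28 peaks opposite to their gene, and the dashed line marks peaks with every read of the window. Most triangles lie on or next to the line, whereas peaks on the gene's strand spread below it.

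Along the gene, members gathered at both ends. Of the 942 on the gene's strand, 373 (39.6%, interval 36.5 to 42.8%) had their summit in the opening 10% of the span and 217 (23%, interval 20.4 to 25.9%) in the closing 10%. The share in the closing 10% was 20.8% over all coding-gene peaks on their gene's strand. For peaks that overlap HepG2 it was 43 of 310 (13.9%, interval 10.2 to 18.2%), 9.17 points below the members (Fisher's exact test, two-sided, adjusted p = 0.000593). The opening 10% held 39.6% of members and 56.1% of overlapping peaks (interval 50.4 to 61.7%), for which no test was run. The difference in the closing 10% kept its direction and call with 1 peak per gene, at 10 to 30 reads and for genes of 10 to 50 kb (7.96, 13.5 and 14.2 points, exact adjusted p of 0.00311, 0.00151 and 0.00298). It was not seen in genes of up to 10 kb, where the closing 10% held 47 of 239 members (19.7%) and 20 of 101 overlapping peaks (19.8%).

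Measured in bases rather than in shares of the span, the ends differed. Within 1 kb of the gene end lay 191 of 942 members (20.3%, interval 17.8 to 23%) and 68 of 310 overlapping peaks (21.9%, interval 17.5 to 27.0%), and these intervals overlap. Within 1 kb of the gene start lay 39.6% of members and 62.9% of overlapping peaks (interval 57.3 to 68.3%). Examples near the end are LGALS4 (50 reads, 0.05 kb from it), GSTP1 (47 reads) and PIGR (47 reads, 0.53 kb). Spans include introns and the longest annotated form of each gene, and exons and untranslated regions were not used here.

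**Figure D5:**
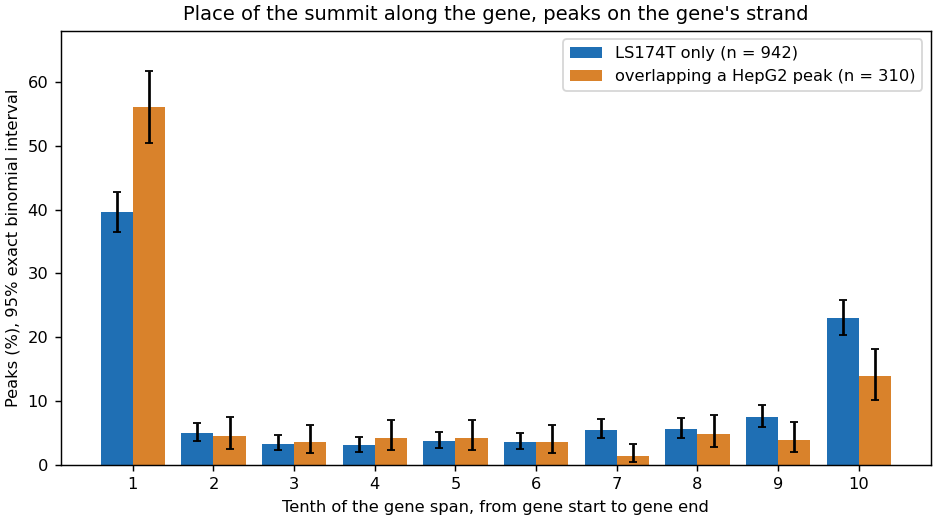
Percent of peaks in 10 equal parts of the gene span, from start to end, for peaks on their gene's strand: LS174T only (n = 942) and overlapping a HepG2 peak (n = 310); bars carry 95% exact binomial intervals. Both sets gather at the ends, with 39.6% and 56.1% in the opening 10% and 23% and 13.9% in the closing 10%.

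The KO-named list was not used by the rule, and 6 members overlapped one of its 46 peaks (0.485%, interval 0.178 to 1.05%). Over all coding-gene peaks of the WT-named list that share was 1.09%, and for those that overlap HepG2 it was 12 of 421 (2.85%, interval 1.48 to 4.93%; difference of -2.36 points, Fisher's exact test, two-sided, adjusted p = 0.000593). Depth moves with this share. At 10 to 30 reads it was 4 of 584 members against 0 of 209 overlapping peaks (exact adjusted p = 0.578), and 8 of the 12 overlapping peaks with a KO-named partner had at least 100 reads. Among the 6 members were GAPDH (87 reads in the WT-named and 33 in the KO-named list), FTL (59 and 21), RPS14 (30 and 17), RPLP2 (28 and 28) and TPT1 (26 and 16). In 5 of the 6 the WT-named list had more reads, and RPLP2 had as many in both. Each list has its own depth, so these are values of 2 lists and not of 2 conditions.

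The mitochondrial genome held 3 members, all on the minus strand. ND5 had 125 reads at 13369 to 14028 and 81 at 12803 to 13025, and ND6 had 93 at 14096 to 14425, each at most 9.85% of the reads of its window. These genes encode subunits of respiratory complex I. Their strand is not in the table used here. As background, ND6 lies on the minus strand and the other mitochondrial coding genes, ND5 among them, on the plus strand. By that background the ND6 member runs with its gene and the ND5 members run opposite to theirs. The ND5 members are therefore not given as ND5 messenger RNA. Among chromosomes, 6.82% of the protein-coding genes of chromosome 19 (99 of 1451) and 3.30% of those of chromosome X held a member, the range over the nuclear chromosomes other than Y.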

How the data were processed

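Per the submitters' processing notes, cutadapt, BWA and MACS2 were used with hg38; their versions are not given in the sources used here. Each deposited line of a list gives the score and the fold (ratio) of 1 peak, with p and q as −log10 values. The score is 10 times the −log10 q cut to a whole number. Peak names show that strands were called separately.

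Reads n came from fold = (n + 1)/(λ + 1) and the Poisson p, with λ in steps of 0.02; all members had 1 solution, and the method was tested on simulated data. Genes came from the GRCh38.p14 RefSeq table, and strands from its promoter table (15843 of 20056 coding genes). Where genes overlapped, one on the peak's strand was taken, then the shortest. Shares carry Clopper-Pearson intervals. The 3 two-sided Fisher's exact tests were adjusted by Benjamini-Hochberg. Alternatives changed the q, read and overlap thresholds, strand, depth and gene length. Python 3.11.15 and SciPy 1.17.1 were used.

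Members and gene lists were chosen with earlier results of these data known. Named genes were the 15 deepest members, genes with at least 4 members, members with a KO-named overlap and the 4 deepest genes of each list. Also named were the 5 nearest peaks on each side of the overlap rule, the 5 deepest members opposite to a gene of known strand, and NR1I2. Others named were chosen after their values were seen. Some genes that this rule names are not reported here.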

Additional observations from a re-analysis of the deposited data

How the results depend on the processing

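The number of members was 1236, and 966 with −log10 q of at least 5 and 684 with at least 10 reads. It was 1248 when at least 50% of the shorter peak had to overlap and 1235 with either strand. It was 1195 when a HepG2 peak within 1000 bp counted, and 1059 with gene spans on the peak's strand only. That last setting also drops genes whose strand is not known. With −log10 q of at least 5 the replication histone list rose from 1 gene with a member to 2. The 966 thus include peaks that are not among the 1236. With at least 10 reads the count of genes with a member moved by over 1.5 times for 14 of 30 lists, with −log10 q of at least 5 for 5, and for 0 lists under the 3 other overlap rules. The difference in strand was 1.94 points at 10 to 30 reads (exact adjusted p = 0.306), and -0.311 points without peaks that hold at least 90% of their window's reads (exact adjusted p = 1). The difference in KO-named overlap was 0.685 points at 10 to 30 reads (exact adjusted p = 0.578) and -1.10 points for genes of 10 to 50 kb (exact adjusted p = 0.0651). The cause of these shifts was not tested beyond the settings themselves. The alternatives on window reads and on gene length were chosen after seeing the data. The difference in the closing 10% of the gene passed the test under the 10 alternatives run, from 6.92 to 14.2 points, with 12.8 points when the closing 20% was taken in its place. Untested values went the other way, with 19.7% of members against 19.8% of overlapping peaks in genes of up to 10 kb, and 20.3% against 21.9% within 1 kb of the gene end. No paired analysis was possible because the lists have no values per library. No replicate could be left out for the same reason. A depth of 10 reads at the median member limits every count above.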

Other observations

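Gene groups picked after their values were seen, and given here as values only, include genes induced by low oxygen. Of 39 such genes 15 held a member (38.5%, against 4.78% of all protein-coding genes), 39 members with a median of 31 reads. GAPDH, ALDOA and ENO1 are among them. Outside glycolysis it held VEGFA (59 reads), NDRG1 (34), DDIT4 (32), STC2 (18), the carbonic anhydrase gene CA9 (15), and ERO1A and EGLN3 (8 each), and none of these 7 had a HepG2 peak, as was so for 815 of all 958 genes with a member.

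Genes of the integrated stress response, which ATF4 controls, held a member in 13 of 33 (39.4%), with a median of 20 reads over 23 members. GDF15 had 39 reads, SQSTM1 38, ATF4 itself 21, the pseudokinase gene TRIB3 20 and GADD45A 19, and 1 of the 13 genes had a HepG2 peak, against 143 of 958. Genes of polyamine metabolism had 4 of 12. These were the antizymes OAZ1 (3 members, up to 24 reads) and OAZ2 (21), the antizyme inhibitor AZIN1 (19) and ODC1 (10), with no HepG2 peak in any of them. DDIT4, SQSTM1 and STC2 also belong to other lists named here. No test was run on these groups.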
